A study of Mus musculus with 4 samples.

Results

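Lgr5, Ascl2, Olfm4, Axin2, Smoc2, Rgmb, Sox9, Lrig1, Tnfrsf19 and Znrf3 are genes of the stem cells at the base of the intestinal crypt and of the Wnt signal that maintains them. They were taken as every non-control probe whose gene name on the array is one of these 10, which gave 25 probes of 56605 and 10 genes of 37074 names. RNA came from mechanically scraped epithelial tissue of ileum and jejunum of C57BL/6J mice aged 9 weeks, measured on 1-colour Agilent arrays. In each tissue there were mice homozygous for the G181R allele of DAO, which encodes D-amino acid oxidase (Tcrbd-/-, DAOG181R/G181R), and mice homozygous for its wild-type allele (Tcrbd-/-, DAOwt/wt). All mice, the wild-type ones included, carried the Tcrbd-/- genotype, the loss of T cell receptor beta and delta. Each of the 4 groups is 1 array that received RNA pooled from 5 mice, so no value has a replicate, no p-value can be given and the spread between mice is unknown.

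Wnt proteins bind Frizzled and LRP receptors and keep beta-catenin from being degraded, and beta-catenin then joins TCF factors on DNA to switch on target genes. R-spondins raise the signal through LGR receptors by removing ZNRF3 and RNF43, which otherwise take Frizzled receptors off the surface. In the small intestine this signal is strongest at the crypt base, where Lgr5-positive stem cells lie among Paneth cells, and its loss stops renewal of the epithelium. Axin2 and Znrf3 are at once targets and brakes of the pathway.

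The arrays gave between 57.4% and 60.4% of probes well above background, and 0 spots were saturated. The 75th percentile of processed signal over probes, which was subtracted on the log2 scale to make arrays comparable, was 175.1 in G181R and 184.8 in wild-type ileum, and 159.7 in G181R and 156.1 in wild-type jejunum. Error could be measured only between spots, on probes printed at least 10 times. The SD of their log2 difference between arrays had a median of 0.0387 to 0.0426 over 279 probes with a signal over 200, of 0.0777 to 0.104 over 9 probes between 50 and 200, and of 0.178 to 0.265 over 7 or 8 probes below 50. It covers spots of 1 hybridisation and neither mice nor pools nor labelling. Regional genes picked for this check, after the values were seen, fitted the tissue labels: the ileal bile acid binding protein Fabp6 had signals of 162698.5 and 179372.2 in G181R and wild-type ileum, against 17.0 and 11.2 in G181R and wild-type jejunum, and the jejunal transcription factor Gata4 had 44.6 and 20.9 in ileum, against 1213.2 and 1185.8 in jejunum. All 10 enterocyte markers and all 10 Paneth cell markers on the array were well above background on every array. Dao expression cannot check the genotype labels, since G181R is an exchange of a single residue.

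Of the 25 probes, 21 were well above background on all 4 arrays, and every one of the 10 genes had at least 1 such probe. The brightest probe stood for its gene. The sequences of 4 probes are shown because Olfm4 rests on a single probe, and because for Axin2, Sox9 and Tnfrsf19 the probe shown and another one further along the transcript can be set side by side below. Each is the 60-base sequence in the deposited file, 5′ to 3′ in the sense of the mRNA, with no stop codon in at least 1 reading frame. Positions are on mm9, as the files give them: Olfm4 at chr14:80421539-80421598 (plus strand), Axin2 at chr11:108803927-108803986 (plus), Sox9 at chr11:112646642-112646701 (plus) and Tnfrsf19 at chr14:61615452-61615511 (minus). No letters are set in capitals here.
Olfm4: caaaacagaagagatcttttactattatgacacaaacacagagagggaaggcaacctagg
Axin2: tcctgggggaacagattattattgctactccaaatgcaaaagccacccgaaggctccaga
Sox9: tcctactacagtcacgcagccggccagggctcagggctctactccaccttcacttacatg
Tnfrsf19: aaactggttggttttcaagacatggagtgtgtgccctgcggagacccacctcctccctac

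The first comparison asks how the stem cell and Wnt genes differ between ileum and jejunum within each genotype. All 10 genes were higher in ileum than in jejunum, in G181R and in wild-type mice alike. The difference was largest for Ascl2, Lgr5, Sox9, Lrig1 and, in wild-type mice, Axin2, and smallest for Olfm4 in G181R mice. In G181R mice 4 of the 10 were at least 2-fold higher in ileum, where 7.29% of 21474 measured genes were so, and in wild-type mice 5 of the 10, where 7.40% of 20751 genes were so. Of the 10, 4 reached 2-fold in both genotypes (Lgr5, Ascl2, Sox9 and Lrig1), against 5.02% of genes. None was lower, and 47.9% of all genes were higher in ileum by any amount in G181R and 46.6% in wild-type mice. At 1.5-fold the counts were 6 of 10 in G181R mice, where 16.1% of genes were so, and 9 of 10 in wild-type mice, where 15.8% were so. The median log2 difference of the 10 genes was 0.72 in G181R and 1.04 in wild-type mice, while that of all measured genes was -0.03 and -0.05. In these pools of tissue, more cells of a type and more RNA per cell cannot be told apart.

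For every one of the 10 genes both ileum arrays lay above both jejunum arrays, which was the case for 32.1% of the 20418 genes well above background on all 4 arrays. All 10 were also higher in ileum within each genotype, as were 39.2% of genes, and 6 reached 1.5-fold in both genotypes, as did 11.7% of genes. The highest array was wild-type ileum for 8 genes and G181R ileum for Smoc2 and Lrig1, and the lowest was wild-type jejunum for 8 genes and G181R jejunum for Rgmb and Sox9. The 2 ileum arrays lay within 2 spot SDs of each other for Axin2, Sox9, Tnfrsf19 and Znrf3. The 2 jejunum arrays did so for Lgr5, Rgmb, Sox9, Tnfrsf19 and Znrf3.

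**Figure D1:**
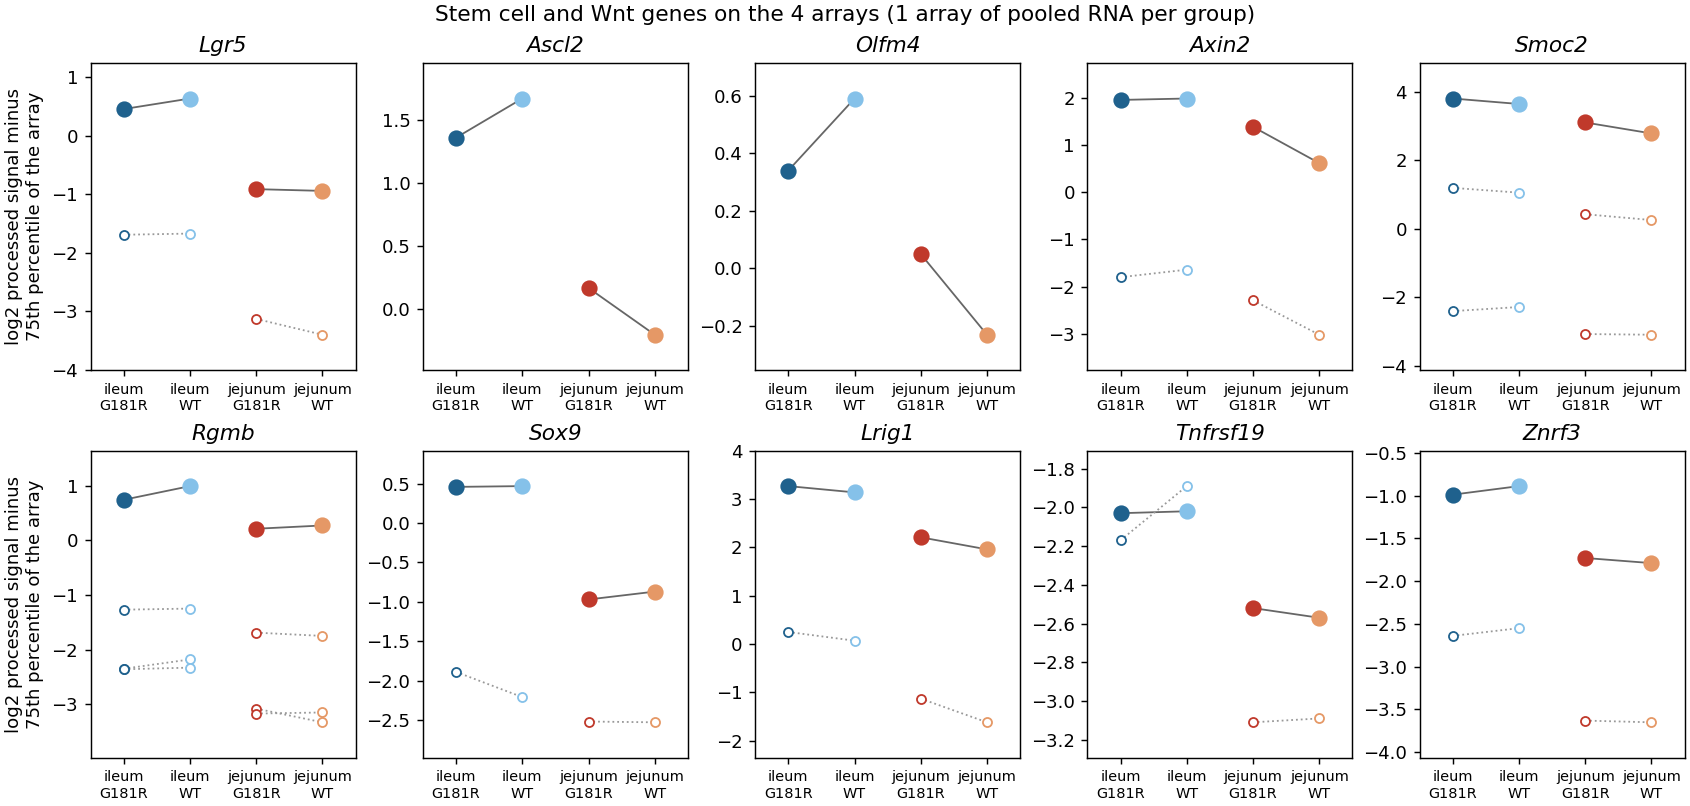
Log2 processed signal minus the array's 75th percentile (vertical axis) on the 4 arrays (horizontal axis), 1 panel per gene with its own scale. Large filled points are the brightest probe and small open points the gene's other probes that were well above background on all arrays; lines join the 2 genotypes of a tissue. In each panel both ileum points of a probe lie above both its jejunum points.

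Among the genes of Wnt reception and feedback, Lgr5, the R-spondin receptor that marks the stem cells, had processed signals of 240.3 in G181R and 287.7 in wild-type ileum, against 85 in G181R and 81.1 in wild-type jejunum (chr10:114887403-114887462, minus strand). Both ileum arrays lay well above both jejunum arrays, and the 2 jejunum arrays differed by less than 2 spot SDs. Ileum over jejunum was 2.58-fold in G181R mice (log2 1.37) and 3.0-fold in wild-type mice (log2 1.58). Its other probe gave log2 differences of 1.45 and 1.74 in G181R and wild-type mice.

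Znrf3, the ubiquitin ligase that removes Frizzled receptors, had 88.2 in G181R and 99.8 in wild-type ileum, against 48.2 in G181R and 45.0 in wild-type jejunum. The file gives only a 6-base position for this probe (chr11:5176332-5176337, minus strand). The tissues did not overlap, and within each tissue the genotypes differed by no more than 0.10 on the log2 scale. Ileum over jejunum was 1.67-fold in G181R and 1.87-fold in wild-type mice. At a second probe the folds were 1.98 and 2.14. Another probe was well above background in ileum alone, which bounds the fold at no less than 2.23 in G181R and 1.79 in wild-type mice.

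Axin2, a scaffold of the complex that degrades beta-catenin and a standard readout of Wnt activity, had 682.1 in G181R and 736.0 in wild-type ileum, against 417.9 in G181R and 240.0 in wild-type jejunum (chr11:108811980-108812039, plus strand). Here the 2 jejunum arrays stood apart from each other while the 2 ileum arrays did not. Ileum over jejunum was therefore 1.49-fold in G181R mice (log2 0.57) and 2.59-fold in wild-type mice (log2 1.37). The probe printed above, with signals of 50.4 and 59.3 in ileum and 32.6 and 19.3 in jejunum (G181R before wild-type), gave 0.49 and 1.38.

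Of the transcription factors, Ascl2, which acts with TCF to set the stem cell programme, had 451.0 in G181R and 587.0 in wild-type ileum, against 179.2 in G181R and 136.0 in wild-type jejunum (chr7:150152734-150152793, minus strand). Ileum was 2.30-fold higher in G181R mice (log2 1.20) and 3.64-fold higher in wild-type mice (log2 1.87), the widest tissue difference of the 10 genes. The 2 genotypes differed in opposite directions in the 2 tissues, each time by more than 2 spot SDs. A further probe named Ascl2, designed on a predicted transcript, was not well above background on any array.

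Sox9, a factor of stem, Paneth and tuft cells, had 240.7 in G181R and 255.5 in wild-type ileum, against 81.4 in G181R and 85.4 in wild-type jejunum (chr11:112647560-112647619, plus strand). The genotypes were nearly alike within each tissue. Ileum over jejunum was 2.70-fold in G181R (log2 1.43) and 2.53-fold in wild-type mice (log2 1.34). The probe printed above, which lies earlier in the transcript and had signals of 47.3 and 40.0 in ileum and 27.8 and 27.1 in jejunum (G181R before wild-type), gave a smaller tissue difference of 0.63 in G181R and 0.32 in wild-type mice, so the size for Sox9 depends on the probe.

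Among the surface and secreted markers of the crypt base, Lrig1, an inhibitor of EGF receptors, had 1686.6 in G181R and 1626.1 in wild-type ileum, against 739.9 in G181R and 607.9 in wild-type jejunum (chr6:94554681-94554740, minus strand). That is 2.08-fold in G181R and 2.26-fold in wild-type mice, and 2.60-fold and 3.25-fold at its other probe. Smoc2, a secreted calcium-binding matrix protein, had 2463.1 and 2313.3 in G181R and wild-type ileum, against 1381.5 and 1082.6 in G181R and wild-type jejunum (chr17:14541664-14541723, plus strand). Its 3 probes lay close together, between 0.67 and 0.77 in G181R and between 0.80 and 0.85 in wild-type mice on the log2 scale.

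Rgmb, a co-receptor for BMP ligands, had 292.5 and 366.4 in G181R and wild-type ileum, against 184.9 and 188.1 in G181R and wild-type jejunum (chr17:15941859-15941918, minus strand). Its 4 probes above background on all arrays gave log2 differences from 0.42 to 0.80 in G181R and from 0.49 to 1.16 in wild-type mice. Tnfrsf19, a TNF receptor family member also called Troy, had 42.7 and 45.5 in G181R and wild-type ileum, against 27.9 and 26.2 in G181R and wild-type jejunum. Its tissue difference was 0.48 in G181R and 0.55 in wild-type mice at the probe printed above, and 0.94 and 1.21 at a probe near the end of the transcript (chr14:61582948-61583007, minus strand). Both probes have signals in the range where spots vary most.

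Olfm4, a secreted glycoprotein abundant in stem cells and known as a Notch target, had 221.8 in G181R and 278.3 in wild-type ileum, against 165.4 in G181R and 133.0 in wild-type jejunum. The 4 arrays were evenly spaced, 0.25, 0.29 and 0.28 apart on the log2 scale, in the order wild-type ileum, G181R ileum, G181R jejunum, wild-type jejunum. Ileum over jejunum was 1.22-fold in G181R (log2 0.29) and 1.77-fold in wild-type mice (log2 0.82). The same order of arrays was seen for 6 of the 10 genes. Of these 6, only Ascl2 and Olfm4 had every step of the order wider than 2 spot SDs. For Lgr5, Axin2, Tnfrsf19 and Znrf3 the genotypes lay within 2 spot SDs in 1 or both tissues, so their order there is not resolved.

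**Figure D2:**
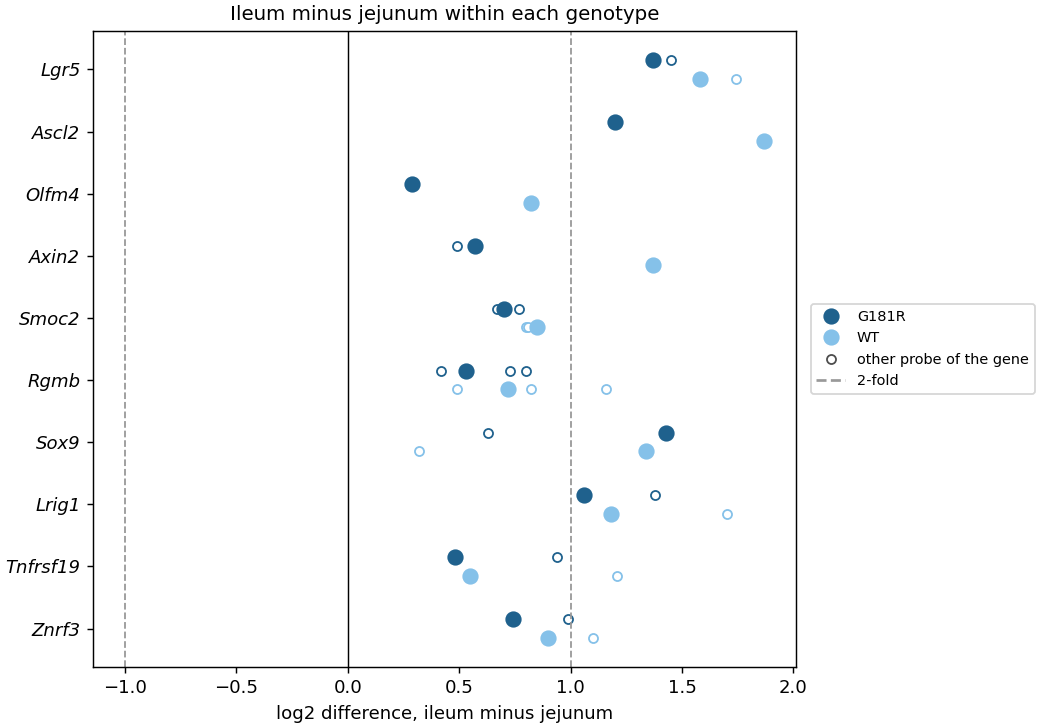
Log2 difference, ileum minus jejunum (horizontal axis), of each gene in G181R mice (dark) and wild-type mice (light); large points are the brightest probe, small open points other probes, dashed lines 2-fold. All points lie right of 0, and 6 of 21 probes in G181R and 11 of 21 in wild-type mice reach 2-fold.

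Since the brightest probe is only 1 view of a gene, the tissue difference was also read over all 21 probes well above background on every array. All 21 were higher in ileum in both genotypes, by 0.29 to 1.45 on the log2 scale in G181R and by 0.32 to 1.87 in wild-type mice. A fold of 1.5 or more was reached by 15 of the 21 in G181R and by 18 in wild-type mice. Probes of 1 gene share its transcripts and are not independent.

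The second comparison asks whether the genes differ between DAO G181R and wild-type mice. In neither tissue did any of the 10 reach a 2-fold difference. In jejunum 1.51% of 21225 measured genes did so and in ileum 5.21% of 21477. The single gene past 1.5-fold was Axin2, higher in G181R jejunum, where 7.49% of genes differed by that much. In ileum 15.5% of genes did. In G181R jejunum 8 of the 10 genes were higher, against 48.4% of all genes, with a median of 0.16. In G181R ileum 8 of the 10 were lower, against 46.7% of all genes, with a median of -0.07. The median of all genes was -0.01 in jejunum and 0.03 in ileum.

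Axin2 was 1.70-fold higher in G181R than in wild-type jejunum (log2 0.77), and 98.3% of measured genes had a lower difference. Its other probe gave 0.73, where the spot SD for such signals is 0.265. In ileum the same probes gave -0.03 and -0.16. The difference between the 2 genotype differences, ileum minus jejunum, was -0.80 and -0.89 at the 2 probes, the widest of the 10 genes at the probes above background on all arrays. A drop of that kind by at least 1.5-fold was found for 6.39% of genes.

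Ascl2 and Olfm4 were higher in G181R jejunum and lower in G181R ileum, each by more than 2 spot SDs, while the 2 ileum arrays did not stand apart for Axin2. Ascl2 differed by 0.36 in jejunum and -0.30 in ileum, Olfm4 by 0.28 and -0.25. The differences of differences were -0.67 and -0.53. At the brightest probe Smoc2 and Lrig1 were higher in G181R in both tissues, by 0.32 in jejunum and 0.17 in ileum for Smoc2 and by 0.25 and 0.13 for Lrig1. The other 2 probes of Smoc2 gave 0.17 and 0.03 in jejunum and 0.14 and -0.11 in ileum, so its direction in ileum depended on the probe. The other probe of Lrig1 gave 0.50 in jejunum and 0.17 in ileum.

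Lgr5 itself differed by 0.03 in jejunum and -0.18 in ileum, and its other probe by 0.27 and -0.02. Rgmb differed by -0.06 and -0.25, though its other 3 probes above background on all arrays gave -0.02 to 0.25 in jejunum and -0.17 to -0.02 in ileum. Sox9 (-0.10 and -0.01), Tnfrsf19 (0.05 and -0.01) and Znrf3 (0.06 and -0.10) differed by no more than 0.10 in both tissues at the brightest probe. At other probes Sox9 was at 0.32 and Tnfrsf19 at -0.28 in ileum. The spread between probes of 1 gene was up to 0.31 in jejunum (Rgmb), which is as wide as most genotype differences, while the 2 Axin2 probes lay 0.04 apart there.

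**Figure D3:**
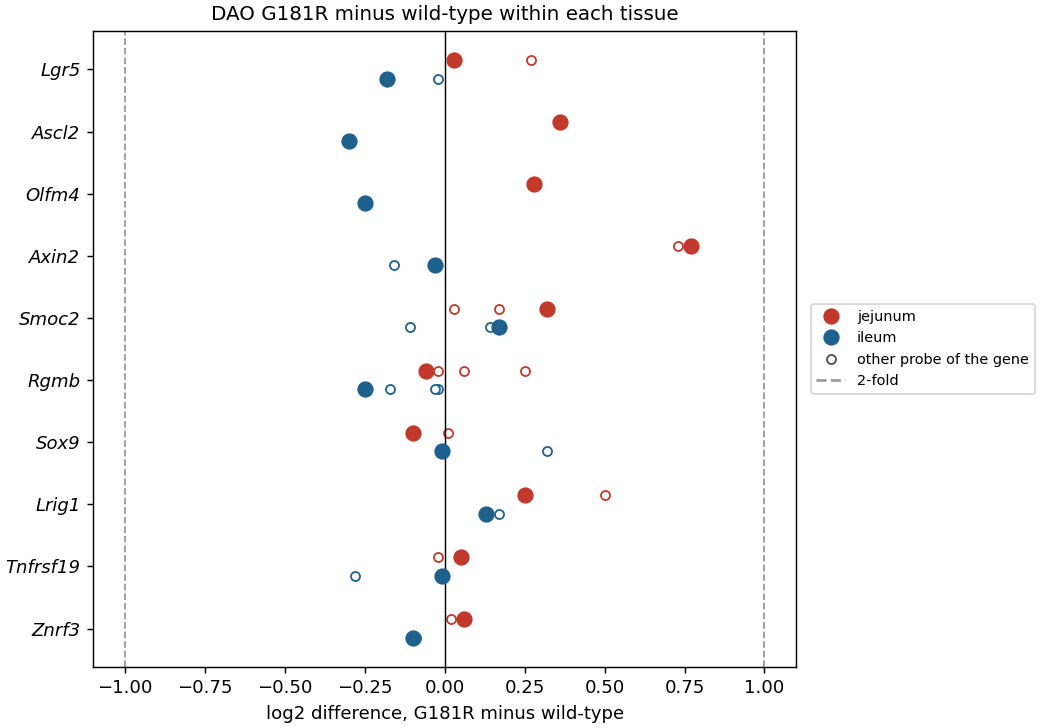
Log2 difference, G181R minus wild-type (horizontal axis), of each gene in jejunum (red) and ileum (blue); large points are the brightest probe, small open points other probes, dashed lines 2-fold. No point reaches 2-fold, and the 2 Axin2 probes in jejunum, at 0.77 and 0.73, lie farthest right.

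For 9 of the 10 genes, Sox9 excepted, the ileum minus jejunum difference was smaller in G181R than in wild-type mice, with a median difference of differences of -0.18 against 0.01 over 20418 genes. Over all genes 48.1% had a negative one. This restates the genotype values above, as the 4 differences are made from the same 4 arrays.

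Other genes of the pathway did not share 1 direction between tissues. Of the 15 other crypt base stem cell genes, 5 passed 2-fold upward and 4 downward in ileum over jejunum in G181R mice. In wild-type mice 7 and 2 did so. Of all genes 7.29% in G181R and 7.40% in wild-type mice were at least 2-fold higher in ileum, and 8.73% and 9.12% lower. Slc12a2, the ion cotransporter of crypt cells, was higher by 1.49 in G181R and 1.65 in wild-type mice, the potassium channel Kcnq1 by 1.18 and 1.78, and the water channel Aqp4 by 3.32 and 1.77. On the other side stood the RNA-binding protein Msi1 (-1.99 and -2.20), picked out after its values were seen. Of the 13 other Wnt target genes, 6 passed 2-fold upward and 2 downward in G181R mice, and 5 and 2 in wild-type mice. Cyclin D1, Ccnd1, was higher in ileum by 3.18 in G181R and 2.54 in wild-type mice, and the secreted Wnt inhibitor Notum was lower by -1.22 and -1.10. Sp5, a transcription factor and Wnt target also picked out after its values were seen, was lower by -3.04 and -3.36. The 2 brightest of the other Wnt target genes differed little. Ephb3 was at 0.42 in G181R and 0.28 in wild-type mice, and Nkd2 at 0.40 and 0.49.

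Among the ligands, Wnt3, the Paneth cell Wnt and likewise chosen after its values were seen, was higher in ileum, with signals of 131.0 and 153.9 in G181R and wild-type ileum, against 20.5 and 12.7 in jejunum. Wnt11 was also higher (1.91 and 1.15) and Wnt4 lower (-2.34 and -2.22). Of 19 Wnt ligands, 9 were not well above background on any array. Lgr4, the receptor closest to Lgr5 in the R-spondin pathway, was higher in ileum by 1.31 and 0.99, while Rnf43, the partner of Znrf3, was at 0.25 and -0.09. The receptors Ryk and Lrp6 differed by 0.32 and -0.21 in G181R mice and by 0.68 and -0.16 in wild-type mice. In the core of the pathway Ctnnb1, which encodes beta-catenin, was at 0.07 and 0.38, and of the genes of the beta-catenin complex and the TCF factors 0 of 16 measured were past 2-fold in G181R and 2 of 15, both higher, in wild-type mice, where Tcf7l1 was at least 2.15-fold higher by its bound. Of the Frizzled receptors and co-receptors 3 of 13 were at least 2-fold higher and 1 lower in G181R, and 2 of 11 and 1 in wild-type mice. Over all genes 7.29% were at least 2-fold higher in ileum and 8.73% lower in G181R, and 7.40% and 9.12% in wild-type mice. By their bounds Fzd2 and Fzd3 were also at least 5.13-fold and 2.27-fold higher in wild-type ileum. Of the extracellular Wnt inhibitors 1 was higher and 2 were lower of 6 measured in G181R and of 8 in wild-type mice. Dkk4, an inhibitor that binds LRP co-receptors, was not well above background in ileum and so was lower there by at least 8.71-fold in G181R and 4.79-fold in wild-type mice. The choice of these 4 genes with bounds was made with their values known.

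Between genotypes the 2-fold threshold was passed upward by 0.763% and downward by 0.749% of all genes in jejunum, and by 2.01% and 3.21% in ileum. Of the Wnt ligands 0 of 8 measured in jejunum passed it, and of 9 measured in ileum 1 was higher and 2 were lower. Of the 13 other Wnt target genes and of the 15 other crypt base genes 0 passed it in jejunum and 1 each, upward, in ileum. Genes not well above background on 1 side add bounds: the ligand Wnt2 was at least 4.67-fold lower in G181R jejunum, and the R-spondin Rspo3 at least 3.58-fold lower in G181R ileum. Ccnd1 was higher in G181R by 0.86 in jejunum and 1.5 in ileum, and Aqp4 by 0.36 and 1.91. Wnt11 was higher by 0.91 and 1.67, and Wnt6 and Wnt9a were lower in G181R ileum, at -1.09 and -1.77. Lgr4, at 0.32 and 0.64, and Rnf43, at -0.58 and -0.24, differed by less. Several of the ligand values rest on signals below 50, where spots vary most. In G181R and wild-type ileum Wnt6 had 16.4 and 37.0, and Wnt9a 11.9 and 43.0. In G181R and wild-type jejunum Wnt11 had 25.5 and 13.3, and Wnt2 5.5 and 26.6. Tcf7l2, which encodes the main TCF factor of the intestinal epithelium and was picked out after its values were seen, differed by 0.61 in jejunum and 0.51 in ileum. Of the genes known from regenerating epithelium, Il33 was higher in G181R by 1.29 in jejunum and 2.57 in ileum, and Spp1 by 1.62 and 1.22. Ly6a was higher in G181R ileum by 2.44 and stood at -0.18 in jejunum. Clu was lower in G181R jejunum, at -1.48, and higher in ileum by 0.58. Of 12 such genes 11 were measured in each tissue, and 3 were at least 2-fold higher in G181R in each, with 1 lower in jejunum and 0 lower in ileum.

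The neighbouring signals of the crypt were also read from gene lists, which were chosen with earlier results of these data known. Of the Notch pathway genes 0 of 8 measured in jejunum and 0 of 9 in ileum were past 2-fold between genotypes. Atoh1, the factor of secretory fate, was higher in ileum by 1.0 in G181R and 1.47 in wild-type mice, and the receptor Notch1 was lower by -1.10 and -1.26. Of 9 BMP pathway genes measured in ileum 3 were at least 2-fold lower in G181R: the ligand Bmp4 (-1.28), its antagonist Grem1 (-1.71) and the BMP target Id2 (-1.04). By its bound the antagonist Chrdl1 was at least 3.36-fold lower there as well. The BMP targets Id1 and Id3, the 2 brightest genes of the list, were at 0.62 and -0.13 in G181R against wild-type ileum. Id1 was the 1 gene of the 9 that was higher. Among EGF receptor genes the ligand Ereg was higher in G181R jejunum by 1.20 and stood at -0.57 in ileum, and Erbb3 was at -0.46 and -0.69. The reserve stem cell genes Bmi1 and Hopx were at -0.07 and -0.47 in jejunum and at -0.21 and -0.06 in ileum. The relatives Lrig2 and Lrig3 differed from Lrig1 between tissues: Lrig2 was lower in ileum, at -0.85 and -0.82, and Lrig3 was at -0.35 and -0.05.

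Markers of other cells moved with the same groups. All 18 cell cycle genes were higher in ileum in both genotypes, with a median of 1.24 in G181R and 1.17 in wild-type mice, and 13 and 12 of them past 2-fold. Of all genes 47.9% and 46.6% were higher in ileum, and 7.29% and 7.40% at least 2-fold higher. The cell cycle genes were also higher in G181R than in wild-type tissue, with a median of 0.47 in jejunum (17 of 18) and 0.57 in ileum (18 of 18), while the medians of the 10 stem cell and Wnt genes there were 0.16 and -0.07. Of all genes 48.4% were higher in G181R jejunum, and 46.7% were lower in G181R ileum. The summed scaled signal of the cell cycle list was 187.8 in G181R and 132.3 in wild-type ileum, against 92.6 in G181R and 75.3 in wild-type jejunum. For the 10 stem cell and Wnt genes it was 36.6 and 35.7 in ileum, against 20.7 and 16.8 in jejunum. Of the 10 Paneth cell markers 7 were at least 2-fold higher in ileum in each genotype and 1 was at least 2-fold lower, Guca2b (-2.18 in G181R and -1.54 in wild-type mice), named after its values were seen. The median difference of the Paneth cell list was 2.5 in G181R and 2.94 in wild-type mice. Its sum was 2516.2 and 2474.9 in ileum against 1812.1 and 1718.5 in jejunum. In jejunum the brightest of the list were Defa24 and Guca2b, the 2 markers that were lower in ileum, so they weigh most in that sum. Defa24 was at -0.16 in G181R and -0.24 in wild-type mice. All 10 enterocyte markers were lower in ileum in both genotypes, with sums of 982.9 and 1181.7 in ileum against 3075.7 and 3551.6 in jejunum. Their differences were very unequal, from -8.73 to -0.34 in G181R and from -9.83 to -0.31 in wild-type mice. The 2 brightest, Fabp2 and Vil1, were at -0.34 and -0.38 in G181R and at -0.31 and -0.49 in wild-type mice. Between genotypes the Paneth cell markers were higher in G181R jejunum in 9 of 10, with a median of 0.48, against 48.4% of all genes. In G181R ileum 6 were higher and 4 lower, with a median of 0.05, which is near the 46.7% of all genes that were lower. None of these markers was below background, and their part in the tissue and genotype differences of the stem cell and Wnt genes was not tested.

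Of the gene lists read, smooth muscle markers had the widest median difference between the 2 ileum arrays. Of the 11 measured there, 9 were at least 2-fold lower in G181R ileum, against 3.21% of all genes. Among them were Synm (-2.98), Synpo2 (-2.81) and Tpm2 (-2.78). The 2 brightest, the actin genes Acta2 and Actg2, differed far less, at -0.19 and -0.34. The summed scaled signal of the list was 44.1 in G181R and 105.8 in wild-type ileum, against 56.9 in G181R and 51.9 in wild-type jejunum. Lmod1 alone of the 12 was well above background on only 1 array, wild-type ileum. The median of the smooth muscle list was therefore -1.02 between ileum and jejunum in G181R mice and 1.47 in wild-type mice, while the 10 stem cell and Wnt genes were higher in ileum in both. Of the 8 fibroblast markers 6 were lower and 2 higher in ileum in each genotype, with medians of -1.01 in G181R and -0.61 in wild-type mice. The 2 higher ones were Dcn (0.94 and 1.08) and Lum (2.15 and 2.81). Between genotypes 7 of the 8 were lower in G181R ileum, with a median of -0.56, and Fbln1 was higher by 0.59. Markers of further cell types also differed. Of 7 goblet cell markers 2 were at least 2-fold higher in ileum in each genotype, and of 8 enteroendocrine markers 5 were at least 2-fold lower in ileum in G181R and 4 in wild-type mice, with medians of -1.47 and -1.0. Of all genes 7.29% in G181R and 7.40% in wild-type mice were at least 2-fold higher in ileum, and 8.73% and 9.12% lower. All 5 tuft cell markers measured were lower in G181R ileum than in wild-type ileum, 2 of them by at least 2-fold, with a median of -0.91. Of all genes 46.7% were lower in G181R ileum, and 3.21% by at least 2-fold. All 5 nerve and glia markers measured were lower there too, with a median of -0.63. The median was -0.17 for endothelial and 0.43 for leukocyte markers. The part of muscle, stroma or these cells in the ileal genotype values of the stem cell and Wnt genes was not tested.

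**Figure D4:**
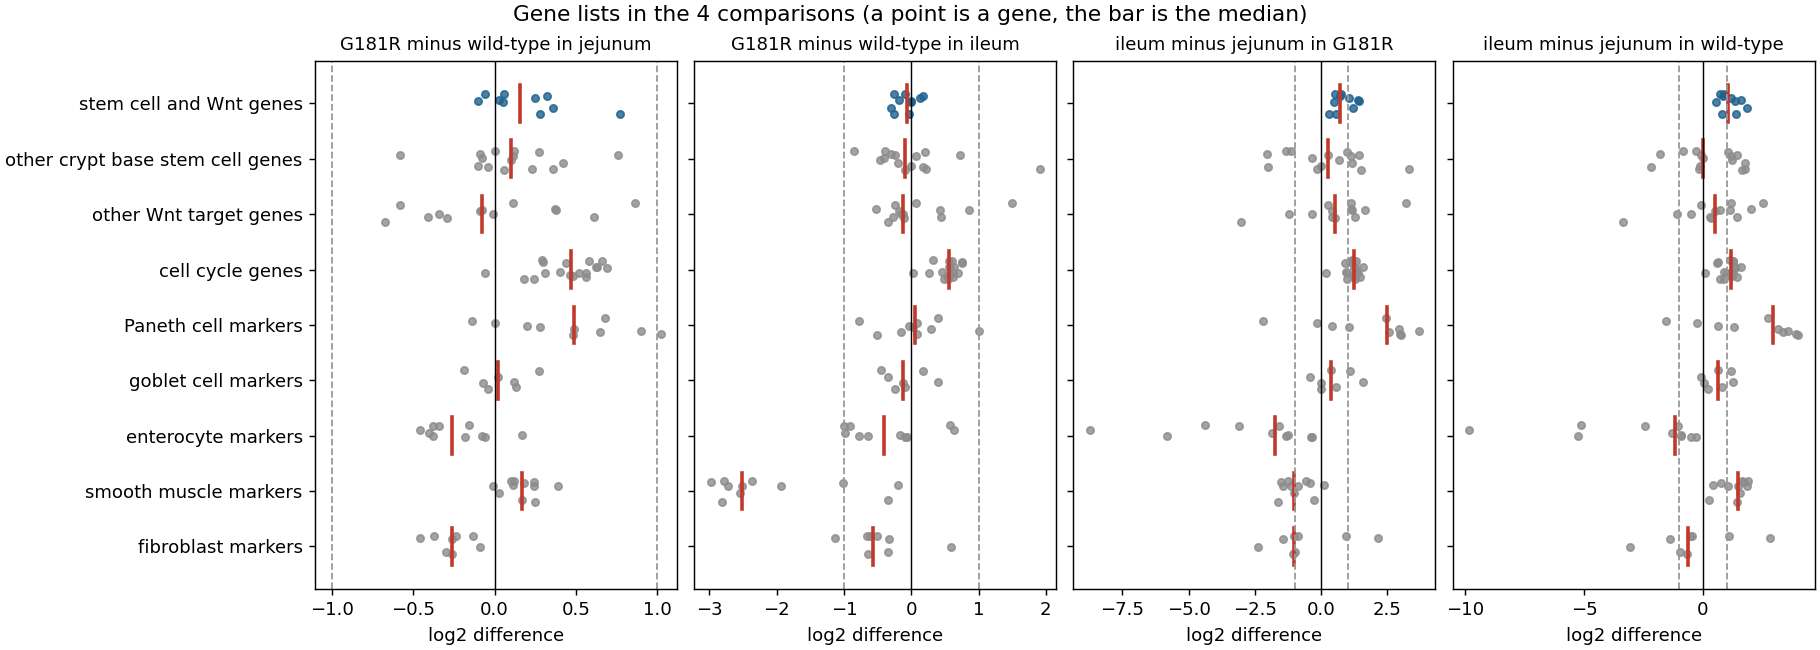
Log2 differences (horizontal axes, each with its own range) of single genes (points) in 9 gene lists for the 4 comparisons; red bars are list medians and dashed lines 2-fold. The stem cell and Wnt genes lie right of 0 in both panels of ileum minus jejunum, like the cell cycle genes, while the smooth muscle medians, -1.02 in G181R and 1.47 in wild-type mice, lie on opposite sides of 0.

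The genes most like Lgr5 over the 4 arrays were found by the Euclidean distance between centred log2 values. The pool was 3890 genes well above background on all arrays and at least 1.5-fold from their own mean on 1 or more. Clone names, predicted gene models and accession names were left out of it. The nearest genes were Cers5 (0.068), Stk3 (0.074), Fgd3 (0.076), Creb3l4 (0.079) and Prkaa2 (0.113). Of the other stem cell and Wnt genes in this pool, Sox9 ranked 31, Ascl2 81, Lrig1 260 and Axin2 788. With 4 arrays and 1 array per group, such likeness describes these arrays alone.

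The stretch before the transcription start was searched for the core TCF motif because all 10 genes were higher in ileum. Both CTTTGAT and CTTTGAA, which differ in their last letter, were looked for on both strands in the 250 bases before each start in RefSeq (GRCm38.p6). Windows for 6 of the 10 genes were at hand (Ascl2, Olfm4, Axin2, Rgmb, Lrig1 and Tnfrsf19), in 9 windows since Rgmb and Tnfrsf19 have several starts. A match was found for Tnfrsf19 alone, 202 bases before 1 of its starts, where it reads ATCAAAG on the strand of the gene. Of all 32851 promoter windows 7.48% held a match. The search covers these windows alone, so a gene with no match here may hold the motif elsewhere. The part of TCF factors in the tissue difference was not tested. The window of Tnfrsf19 is at chr14:61037988-61038237 (minus strand), with the match in capitals, and that of Axin2, the gene that differed most between genotypes, at chr11:108920099-108920348 (plus strand), with no match.
Tnfrsf19: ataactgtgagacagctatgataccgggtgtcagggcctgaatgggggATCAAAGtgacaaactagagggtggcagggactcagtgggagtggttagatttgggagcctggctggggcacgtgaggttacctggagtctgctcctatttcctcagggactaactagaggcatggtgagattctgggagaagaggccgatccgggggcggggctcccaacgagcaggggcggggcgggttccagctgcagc
Axin2: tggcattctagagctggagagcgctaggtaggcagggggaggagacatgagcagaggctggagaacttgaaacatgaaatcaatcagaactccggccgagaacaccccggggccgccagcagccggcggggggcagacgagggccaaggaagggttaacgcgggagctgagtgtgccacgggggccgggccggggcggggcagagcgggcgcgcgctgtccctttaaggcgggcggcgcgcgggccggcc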

How the data were processed

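RNA of scraped ileal and jejunal epithelium was measured on 4 Agilent 1-colour (Cy3) arrays, 1 per group, each from a pool of 5 mice. Per the file headers, the authors' Agilent Feature Extraction (version 11.5.1.1 in the submitters' processing notes) gave the intensity of each spot after background subtraction and detrending within the array, with no scaling between arrays, and other values that flag outliers, saturation and signal well above background. The deposited value table holds log2 values: 95.8% of its 56605 probes equal the log2 processed intensity less 1 constant per array (tolerance 0.01), and 2356 hold a fill value, among them the Tnfrsf19 probe used here. Its columns have medians of -3.13, -3.09, -3.08 and -3.08 (G181R ileum, wild-type ileum, G181R jejunum, wild-type jejunum); how the constants were set is not given in the sources used here. It was used as an alternative. There were 0 columns of unlisted samples.

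Spots of 1 probe were averaged as log2 intensity, outlier spots left out, and the array's 75th percentile was subtracted (Python 3.11.15, pandas 2.3.3). The brightest probe of a gene name stood for it. A gene was measured in a comparison if well above background on both arrays and counted as different from 2-fold. A probe above background on 1 side gives a bound, against the higher of its own signal and the lowest signal well above background on the other array. No test was possible with 1 array per group; slide and group cannot be told apart. The counting was tested on simulated data. Normexp used limma 3.58.1 (R 4.3.3). With 4 arrays, their number sets the precision.

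The 10 genes and the 24 other gene lists were chosen with earlier results of these data known. Named genes are the 10, the 5 nearest to Lgr5, and genes from each list. The rule for the lists was up to 4 genes at least 2-fold different between genotypes and the 2 brightest. Not every gene that this rule picked is named. Exceptions are marked in the text, save Wnt2, Rspo3, Chrdl1 and Lmod1, which were chosen outside the rule. The rule also asked for the 5 nearest to Olfm4, which are left out because Olfm4 itself does not reach the 1.5-fold filter of that search. The regional markers were added after seeing the data.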

Additional observations from a re-analysis of the deposited data

How the results depend on the processing

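All 10 genes were higher in ileum than in jejunum in both genotypes with normexp background correction, quantile and median scaling, no filter on dim probes and outlier spots kept. The exceptions rest on single probes: in the mean of all probes, which takes in a probe below background, Ascl2 in G181R mice was at -0.27, and in the deposited table Tnfrsf19 reads the fill value (-0.86 in G181R, -0.84 in wild-type mice). The median of the 10 genes for ileum minus jejunum in G181R mice was 0.62 with normexp, 0.77 with quantile scaling and 0.78 with median scaling. In wild-type mice it was 0.90 with normexp, 1.13 with quantile scaling and 0.92 in the mean of all probes. For G181R minus wild-type it was 0.11 in jejunum with normexp, and in ileum -0.02 with median scaling and -0.14 with the deposited values. With normexp 2 genes were at least 2-fold higher in ileum in G181R mice in place of 4. At a threshold of 1.5-fold, 9 genes differed between tissues in wild-type mice and 1 between genotypes in jejunum. Of alternatives chosen after seeing the data, the deposited values without filled probes gave 0.25 for the genotype difference in jejunum and 1.18 for the tissue difference in wild-type mice. The mean of probes above background on all arrays gave 0.79 in G181R and 0.94 in wild-type mice for ileum minus jejunum. The second brightest probe of 8 genes gave 0.86 and 1.15 there, and 0.12 in jejunum and -0.02 in ileum for the genotypes. The Axin2 difference in jejunum lay between 0.65 and 0.78 over all alternatives run. Between genotypes 7 of the 10 genes kept their sign in all alternatives in each tissue. Those that did not were Rgmb, Tnfrsf19 and Znrf3 in jejunum, and Axin2, Sox9 and Tnfrsf19 in ileum. The cause of these shifts was not tested. Normexp pulls dim signals together by its construction, and signals under 50 are the least precise. In each alternative with the 2-fold threshold 0 of the genes differed 2-fold between genotypes. Over all genes, 2-fold counts (higher and lower) were 162 and 159 between genotypes in jejunum, 431 and 689 in ileum, and 1566 and 1875 (G181R) and 1535 and 1892 (wild-type) between tissues. With normexp they were 60 and 33 (64.5% higher, against 50.5%), 179 and 216, 765 and 970, and 781 and 1010. Without the dim filter they were 1165 and 1650, 1507 and 2001, 2931 and 3937, and 2944 and 4037, with all-gene medians of -0.10, -0.12, -0.07 and -0.27. No paired analysis was possible because each group is 1 array.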
